A study of Mus musculus with 8 samples.

Results

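Potassium channel genes were examined in the inguinal fat pad (iWAT), a white fat depot beneath the skin of the groin, of Senp2-aKO and control mice. The genes were those whose symbol starts with Kcn, leaving out the antisense transcript Kcnq1ot1. The array design carried 131 named probes for 96 such genes. The members were chosen by measured values: a probe was kept when 4 or more of the 8 arrays, from either group, gave it a signal well above background. This kept 51 probes of 44 genes, out of 30508 kept probes in all and 14730 named genes with a kept probe. Because the filter reads the same signals as the comparison, a probe that passed only through the group in which it was high had to differ, so counts over the kept probes describe them and support nothing by themselves.

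The 4 Senp2-aKO samples came from Senp2 flox/flox mice with Adipoq Cre, a recombinase driven by the adiponectin gene and active in adipocytes, and the 4 control samples came from Senp2 flox/flox mice without it. Both groups thus carried floxed alleles of Senp2, whose protein cuts the small modifier SUMO from other proteins, and both ate a diet with 58 kcal% fat for 12 weeks from 8 weeks of age at 22 to 24 °C. TRIzol was used to isolate total RNA, of which 0.5 µg received the dye Cy3 for 1-colour Agilent arrays, 1 array per sample. The tissue holds vessels, nerves, immune cells and progenitors beside adipocytes, and Adipoq Cre deletes only in cells that express it. In such bulk samples, fewer cells of a type and less RNA per cell cannot be told apart, and the labels do not say that each sample is a separate animal, so the p-values measure the spread between these samples.

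Potassium channels let potassium ions cross the cell membrane down their gradient and thereby set the resting potential and end electrical excitation. Inward rectifiers and tandem-pore (K2P) leak channels are open near rest, voltage-gated channels open on depolarisation, and calcium- or sodium-activated channels follow the ions inside the cell. In fat, such channels are found in vessel walls, nerve fibres and immune cells as well as in adipocytes, where the membrane potential bears on calcium entry, hormone-stimulated lipolysis and, in brown adipocytes, the response to noradrenaline.

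Levels are given as log2 of the processed signal, scaled to each array's 75th percentile, so they can be compared between arrays for a given probe but not between probes. A log2 fold change is Senp2-aKO minus control, with its standard error (SE), and a probe passed at an adjusted p under 0.05 in limma, with Benjamini-Hochberg adjustment over all 30508 kept probes. Senp2 itself read 2.19, 2.12, 2.20 and 2.22 on Senp2-aKO arrays 1 to 4, against 2.46, 2.46, 2.52 and 2.37 on control arrays 1 to 4. The groups did not overlap, and the level in Senp2-aKO tissue was 82.8% of control, but the difference did not pass (log2 fold change -0.27, SE 0.08, adjusted p = 0.0796). Of the 16 alternatives run, Senp2 passed in 1, under the normexp background model (log2 fold change -0.31, adjusted p = 0.0185). The 5 adipocyte markers were above background on all 8 arrays, with list means of 7.82 ± 0.19 in Senp2-aKO and 7.58 ± 0.10 in control tissue (SD, n = 4 each, exact permutation p = 0.0857). The groups lay in separate rows of 1 slide, so slide position and genotype cannot be told apart. Before scaling, the 75th percentile signal averaged 349 ± 27.1 intensity units in Senp2-aKO and 419 ± 18.2 units in control arrays (SD, n = 4 each, exact permutation p = 0.0286, the smallest that 70 assignments allow). The number of named Kcn probes above background was 51 ± 2.94 per Senp2-aKO array and 48 ± 2.31 per control array (SD, n = 4 each, exact permutation p = 0.2).

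Of the 51 kept probes, 9 were higher and 7 were lower in Senp2-aKO tissue, and 35 did not pass. That is 17.6% higher and 13.7% lower, beside 5.48% higher and 4.35% lower among all kept probes. Groups that did not overlap were found for 11 probes with Senp2-aKO higher and 8 with Senp2-aKO lower, beside 11.9% and 11.2% of all kept probes. The median log2 fold change was 0.10, beside 0.02 over all kept probes. Among the 39 probes above background on all 8 arrays, for which the filter could not act through 1 group, 5 were higher and 5 were lower, or 12.8% each way, beside 5.43% and 4.36% of all probes with that property. With each gene read by its brightest probe, 7 of 44 genes were higher and 5 were lower, beside 6.13% and 5.72% of all named genes. The counts depended on which array was left out: 5 probes were higher without Senp2-aKO 1, Senp2-aKO 4, control 2, control 3 or control 4, and 4 without control 1. For probes that were lower, the count was 2 without control 1 and 4 without control 3. Without Senp2-aKO 2, 9 probes were higher and 9 lower, and without Senp2-aKO 3, 8 were higher and 9 lower. Calls over all 30508 kept probes moved as well, from 1673 higher and 1326 lower on all arrays. They were 559 and 281 without control 1, and 727 and 380 without control 3. Leaving out Senp2-aKO 1, Senp2-aKO 4, control 2 or control 4 gave 857 to 965 higher and 465 to 652 lower. They were 2048 and 1818 without Senp2-aKO 2, and 1730 and 1546 without Senp2-aKO 3. Without the background filter, 4 of these same 51 probes were higher and 4 lower, and named Kcn probes outside the 51 were not counted. Over all 55412 probes tested in that setting, 910 were higher and 534 lower. The calls given below for Kcnc1, Kcna4, the brighter Kcne3 probe, Kcnk6, Kcnk9, Kcnk13 and the dimmer probes of Kcnj14 and Kcnj15 were then lost. By family, 8 of 9 inward rectifier probes passed, against 4 of 20 pore-forming voltage-gated probes, 1 of 8 auxiliary probes, 3 of 8 K2P probes and 0 of 6 probes for calcium- or sodium-activated channels. The 9 inward rectifier probes read 6 genes, and Kcnj13, Kcnj14 and Kcnj15 each count with 2 probes. For Kcnj12 and the dimmer probes of Kcnj13, Kcnj14 and Kcnj15 the filter could act through 1 group, as for Kcnc1 and Kcnk9. The family counts are thus a description.

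**Figure D1:**
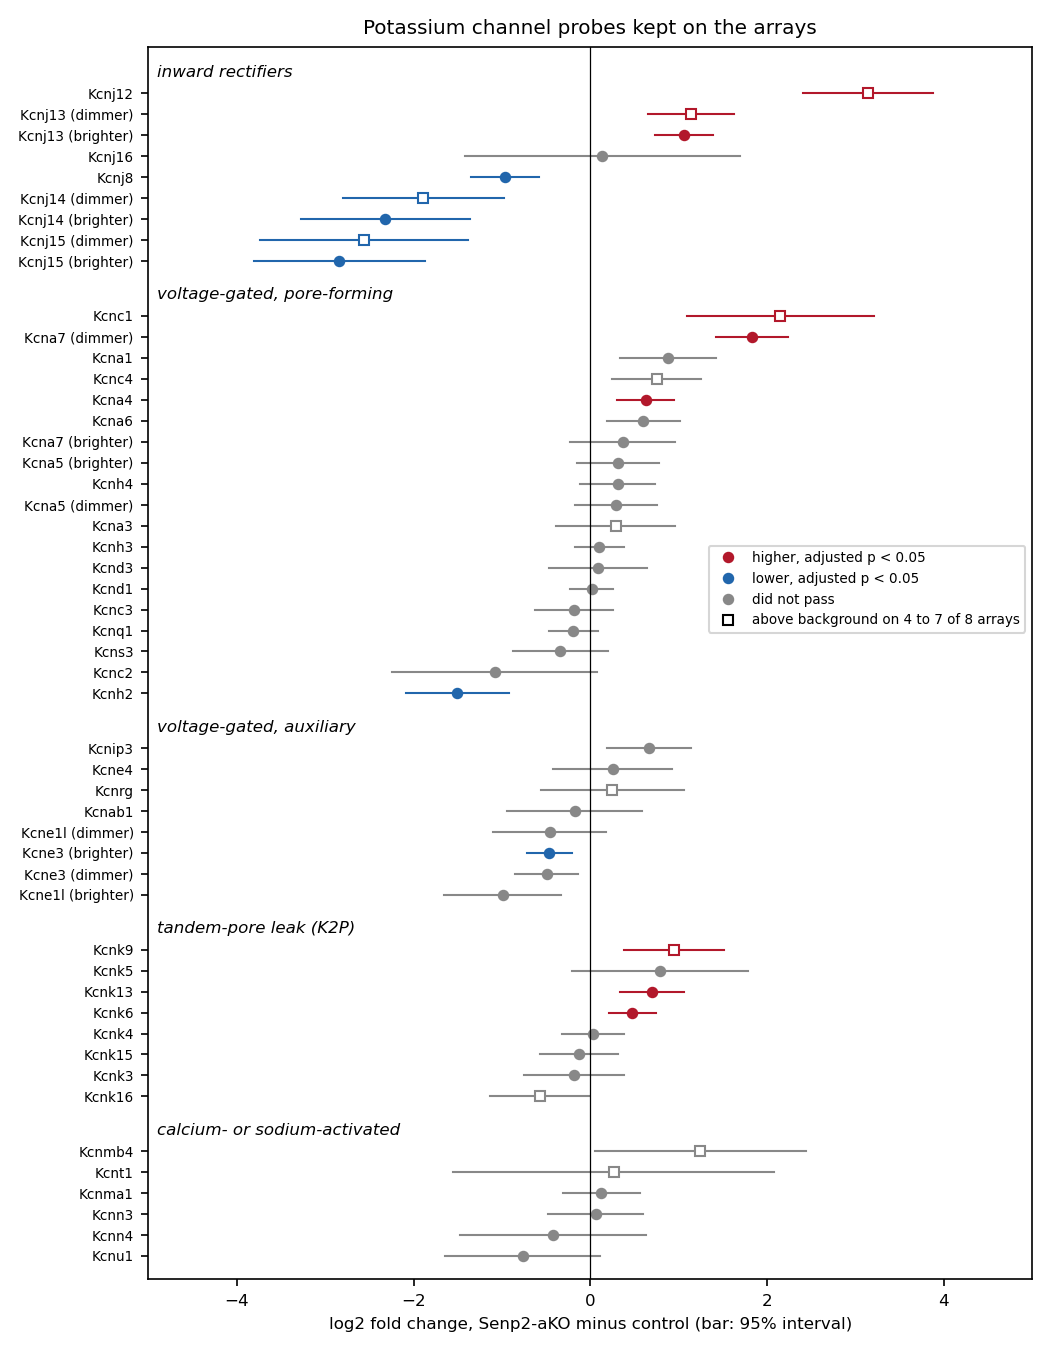
Log2 fold change of the kept potassium channel probes, 1 of which is not shown, with its 95% interval, Senp2-aKO minus control, grouped by family; red and blue points passed the test and open squares were above background on 4 to 7 arrays. Of the inward rectifiers, 3 probes were higher and 5 were lower, while no probe of the calcium- or sodium-activated family passed. Kcnj12 and the dimmer Kcnj15 probe are plotted at measured values, although control arrays give only a bound for Kcnj12. Senp2-aKO arrays give only a bound for the dimmer Kcnj15 probe.

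Among the inward rectifiers, Kcnj15, Kcnj14 and Kcnj8 fell and Kcnj12 and Kcnj13 rose. Of the 15 inward rectifier genes with a probe, 6 had a kept probe, and the family's 9 kept probes had 3 rises, 5 falls and a median log2 fold change of -0.97. Kcnj13, Kcnj14 and Kcnj15 were read by 2 probes each.

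Kcnj15 encodes an inward rectifier known from kidney and pancreas, which can form mixed channels with the product of Kcnj16. Its brighter probe (A_55_P2164090) read -1.42, -1.39, -1.35 and -1.19 on Senp2-aKO arrays 1 to 4, against 1.54, 2.82, 1.13 and 0.52 on control arrays 1 to 4. All Senp2-aKO values lay within a narrow band below every control value, and control 2 stood highest. The level was 7.15-fold lower in Senp2-aKO tissue (95% interval 3.66 to 14.0, log2 fold change -2.84, SE 0.42, adjusted p = 0.00933). This call held in all 16 alternatives that were run. The dimmer probe (A_52_P101303) rose above background on 0 of 4 arrays in Senp2-aKO and 4 of 4 in control tissue, with measured means of -6.14 ± 0.67 in Senp2-aKO and -3.58 ± 1.0 in control tissue (SD, n = 4 each). Set against the lowest signal above background on each Senp2-aKO array, it was at least 2.36-fold lower in Senp2-aKO tissue. Limma on the measured values gave adjusted p = 0.0221, which does not test this bound. This dimmer probe was kept through the 4 control arrays alone, so it had to differ and is no second reading in support of the brighter probe. Its call was lost without Senp2-aKO 1, control 1 or control 3, at adjusted p from 0.0503 to 0.0649, and under the normexp background model (log2 fold change -0.51, adjusted p = 0.0953). Kcnj16 read -4.16, -1.45, -2.91 and -2.11 in Senp2-aKO, against -2.15, -4.20, -1.76 and -3.06 in control tissue. Its groups overlapped over nearly their whole ranges (log2 fold change 0.14, SE 0.68, adjusted p = 0.918).

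Kcnj14 encodes a strong inward rectifier of the same subfamily as Kcnj12, known from motor neurons of the rat brain stem. Its brighter probe read -1.06, -2.19, -0.18 and -0.55 in Senp2-aKO, against 1.43, 0.89, 1.12 and 1.85 in control tissue. The groups did not overlap, with Senp2-aKO 2 lowest. The level was 4.99-fold lower in Senp2-aKO tissue (95% interval 2.57 to 9.68, log2 fold change -2.32, SE 0.42, adjusted p = 0.0166), and the call was lost without control 1 (adjusted p = 0.0549). The dimmer probe, above background on 1 of 4 Senp2-aKO arrays, was 3.71-fold lower (95% interval 1.97 to 6.98, adjusted p = 0.0253). This call was lost without Senp2-aKO 1, Senp2-aKO 4 or any 1 control array, at adjusted p from 0.0512 to 0.0685, and under normexp (log2 fold change -0.42, adjusted p = 0.0714). The 4 control arrays met the background filter by themselves, so the dimmer probe is no second reading in support of the brighter one.

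Kcnj8 encodes the pore of the ATP-sensitive potassium channel of vascular smooth muscle and pericytes, where it works with the sulfonylurea receptor Abcc9. It read -1.30, -1.34, -1.02 and -0.79 in Senp2-aKO, against -0.12, -0.48, 0.07 and -0.06 in control tissue. The groups did not overlap, and the level was 1.96-fold lower in Senp2-aKO tissue (95% interval 1.5 to 2.55, log2 fold change -0.97, SE 0.17, adjusted p = 0.0149). The call was lost without control 1 (adjusted p = 0.0510). Abcc9 differed by -0.15 (log2, SE 0.09, adjusted p = 0.336), and the other sulfonylurea receptor, Abcc8, by 0.21 (log2, SE 0.14, adjusted p = 0.348). Of 8 smooth muscle markers 7 were measured, of which 1 rose (Des, which striated muscle also expresses) and 0 fell. Their list mean ranged from 1.65 to 2.10 in Senp2-aKO and from 1.53 to 1.96 in control tissue (exact permutation p = 0.229), and their median log2 fold change was -0.08. Besides Des (2.28), Cnn1 and Actg2 differed by 0.40 and 0.23, and Acta2, Myh11, Smtn and Tagln by -0.73, -0.39, -0.39 and -0.08, none of which passed. The 6 endothelial markers had list means from 3.15 to 3.72 in Senp2-aKO and from 3.40 to 3.67 in control tissue, and 0 of them passed. The part of vessel cells in the difference of Kcnj8 was not tested. Kcnj11, the pore of the same channel type in pancreatic beta cells and muscle, had no kept probe and was above background on at most 2 arrays with either of its 2 probes.

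Kcnj12 encodes an inward rectifier of striated muscle and other excitable cells. It read -2.47, -1.71, -1.13 and -2.55 on Senp2-aKO arrays, against -5.44, -4.75, -5.25 and -5.01 on control arrays. Its signal exceeded background on 4 of 4 arrays in Senp2-aKO and 0 of 4 in control tissue, with measured means of -1.97 ± 0.67 in Senp2-aKO and -5.11 ± 0.30 in control tissue (SD, n = 4 each). Against the lowest signal above background on each control array, it was at least 7.30-fold higher in Senp2-aKO tissue. Limma on the measured values gave adjusted p = 0.00474, which does not test this bound. The probe was kept through the 4 Senp2-aKO arrays alone, so it had to differ and these values are a description. Its measured log2 fold change of 3.15 was 1.32 under the normexp background model.

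Kcnj13 encodes an inward rectifier of ion-transporting epithelia such as the retinal pigment epithelium and the choroid plexus. Its brighter probe read -2.84, -2.60, -2.94 and -3.21 in Senp2-aKO, against -3.90, -3.80, -4.07 and -4.06 in control tissue. Every Senp2-aKO value lay above every control value, a 2.09-fold rise (95% interval 1.66 to 2.62, log2 fold change 1.06, SE 0.14, adjusted p = 0.00711). The call held in all 16 alternatives, with log2 fold changes from 0.50 under normexp to 1.17. The dimmer probe, above background on 2 of 4 control arrays, was 2.21-fold higher (95% interval 1.58 to 3.10, adjusted p = 0.0180), and its call was lost without control 1 (adjusted p = 0.0601). The 4 Senp2-aKO arrays met the background filter by themselves, so the dimmer probe is no second reading in support of the brighter one. Kcnj13 overlaps Gigyf2 in the RefSeq table, and the probe of Gigyf2 differed by -0.05 (log2, SE 0.11, adjusted p = 0.804). Of 7 epithelial markers 3 were measured, of which Krt5 and Krt14 rose, while Krt8, Epcam, Elf5 and Cdh1 had no kept probe. Krt18, the third, did not pass (log2 fold change 2.81, SE 0.90, adjusted p = 0.0838). Its Senp2-aKO 4 value (-3.02) lay within the control range of -3.16 to -2.41. The list mean ranged from -3.10 to -1.28 in Senp2-aKO and from -3.79 to -3.42 in control tissue (exact permutation p = 0.0286, 0.0786 after adjustment over 11 marker lists). The part of epithelial cells in the difference of Kcnj13 was not tested.

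The promoters of 4 of the 5 inward rectifiers that passed are shown because these genes moved in opposite directions within a family. They are RefSeq sequences of build GRCm38.p6, from 250 bases before to 50 after the annotated start, written 5′ to 3′ on the gene's strand. Capitals mark matches to any of 4 motifs: the C/EBP motif TTGCNNAA on both strands, the myogenic E-box CAGCTG on both strands, the CCAAT box on both strands and the TATA box TATAAA on the gene's strand. Kcnj15 lies at chr16:95257308-95257607 on the plus strand and Kcnj8 at chr6:142571565-142571864 on the minus strand. Kcnj12 lies at chr11:61065554-61065853 on the plus strand and Kcnj13 at chr1:87394680-87394979 on the minus strand.
Kcnj15: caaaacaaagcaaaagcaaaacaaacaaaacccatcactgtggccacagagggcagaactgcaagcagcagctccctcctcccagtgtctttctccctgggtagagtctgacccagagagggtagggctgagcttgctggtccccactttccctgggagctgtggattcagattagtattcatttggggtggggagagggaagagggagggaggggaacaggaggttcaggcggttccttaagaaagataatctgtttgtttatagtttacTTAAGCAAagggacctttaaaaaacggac
Kcnj8: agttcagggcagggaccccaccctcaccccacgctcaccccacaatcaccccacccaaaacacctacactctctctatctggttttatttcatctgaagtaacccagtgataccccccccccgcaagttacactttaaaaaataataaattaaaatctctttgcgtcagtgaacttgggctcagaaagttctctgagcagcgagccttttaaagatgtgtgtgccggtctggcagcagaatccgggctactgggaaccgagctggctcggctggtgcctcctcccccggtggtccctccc
Kcnj12: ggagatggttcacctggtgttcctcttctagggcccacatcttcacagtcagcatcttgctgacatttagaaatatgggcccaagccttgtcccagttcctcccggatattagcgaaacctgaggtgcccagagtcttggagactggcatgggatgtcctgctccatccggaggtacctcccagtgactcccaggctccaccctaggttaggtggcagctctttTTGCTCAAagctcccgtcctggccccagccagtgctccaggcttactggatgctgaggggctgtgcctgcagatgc
Kcnj13: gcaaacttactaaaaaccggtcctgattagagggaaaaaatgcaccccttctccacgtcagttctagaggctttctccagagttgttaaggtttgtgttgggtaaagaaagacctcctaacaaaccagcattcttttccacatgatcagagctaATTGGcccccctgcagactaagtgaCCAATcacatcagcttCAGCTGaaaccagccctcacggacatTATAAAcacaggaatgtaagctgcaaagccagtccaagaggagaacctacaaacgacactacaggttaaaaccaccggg
Kcnj15, which fell, and Kcnj12, which rose, each held 1 match to the C/EBP motif, Kcnj13 held 1 E-box, 2 CCAAT boxes and 1 TATA box, and Kcnj8 held no match. No 2 matches overlapped in these windows. Among the 44 promoters of the 32 member genes found in the table, 5 (11.4%) held the C/EBP motif, beside 10.8% of all 32851 promoters. The E-box was in 13 of the 44 (29.5%), beside 16.3% of all promoters, the CCAAT box in 10 (22.7%), beside 37.4%, and the TATA box in 2 (4.55%), beside 8.32%. Among the 11 promoters found for genes that passed, 3 held the C/EBP motif, 1 the E-box, 2 the CCAAT box and 1 the TATA box. These matches are letters in the reference sequence and say nothing of binding.

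Of the 40 pore-forming voltage-gated genes with a probe, 18 had a kept probe. Their 20 kept probes had 3 rises, 1 fall and a median log2 fold change of 0.29. Kcnh2, Kcnc1, Kcna7 and Kcna4 had a probe that passed.

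Kcnh2 encodes the ERG channel, which repolarises heart muscle and was the only pore-forming voltage-gated gene among these 18 with a probe that fell. It read -1.98, -2.85, -1.56 and -2.09 in Senp2-aKO, against -0.77, -0.66, -0.69 and -0.33 in control tissue. The groups did not overlap, and Senp2-aKO 2 was lowest. The level was 2.84-fold lower in Senp2-aKO tissue (95% interval 1.90 to 4.26, log2 fold change -1.51, SE 0.25, adjusted p = 0.0137), a call that held in all 16 alternatives.

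Kcnc1 encodes a fast-closing delayed rectifier of rapidly firing neurons. It read -3.49, -3.14, -2.93 and -3.67 in Senp2-aKO, against -6.68, -5.18, -4.23 and -5.74 in control tissue, where it was above background on 1 of 4 arrays. The 4 control values were spread widely but lay below all Senp2-aKO values. The level was 4.44-fold higher in Senp2-aKO tissue (95% interval 2.13 to 9.26, log2 fold change 2.15, SE 0.46, adjusted p = 0.0270), and the call was lost without Senp2-aKO 1, Senp2-aKO 4, control 1, control 2 or control 4, at adjusted p from 0.0514 to 0.0690. Under normexp the log2 fold change was 0.56. Its 4 Senp2-aKO arrays met the background filter by themselves, so the filter could act through 1 group. The call is thus a description. The other Kcnc1 probes were above background on 0 arrays.

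Kcna7 encodes a voltage-gated channel known from skeletal muscle and heart, and its 2 kept probes gave different answers. The dimmer probe (A_66_P114700) read -0.79, -0.97, -0.32 and -0.76 in Senp2-aKO, against -2.17, -2.68, -2.54 and -2.76 in control tissue. It was 3.56-fold higher in Senp2-aKO tissue (95% interval 2.68 to 4.73, log2 fold change 1.83, SE 0.18, adjusted p = 0.00464), and these groups did not overlap. The call held in all 15 alternatives that gave a value, with log2 fold changes from 1.25 to 1.95. The brighter probe (A_55_P2090142) read 0.26, -0.46, -0.17 and -0.69 in Senp2-aKO, against -0.15, -1.03, -0.43 and -0.91 in control tissue. These ranges overlapped, and the difference did not pass (log2 fold change 0.37, SE 0.26, adjusted p = 0.387). The gap between the probes on the same array, brighter minus dimmer, was 0.44 ± 0.45 in Senp2-aKO and 1.91 ± 0.20 in control tissue (log2, SD, n = 4 each). This unequal change between probes had the smallest p that an exact permutation test allows (0.0286, two-sided), but 0.2 after adjustment over the 7 genes with 2 kept probes. For the other 6 genes the fold changes of both probes differed by 0.02 to 0.53 on the log2 scale, with exact permutation p from 0.0857 to 0.914. For Kcnj15 this used measured values of a dimmer probe that was not above background in Senp2-aKO tissue. The dimmer probes of Kcnj13, Kcnj14 and Kcnj15 could be kept through 1 group.

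**Figure D2:**
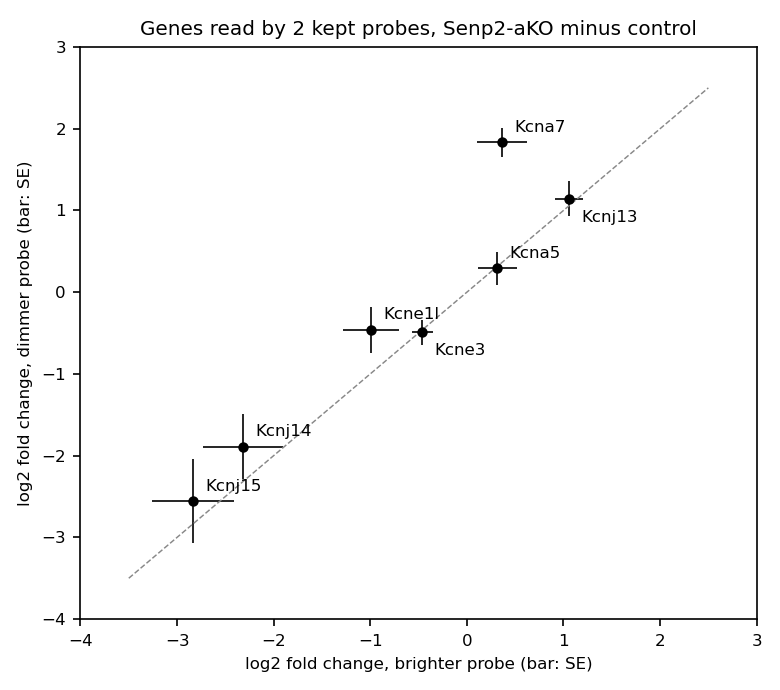
Log2 fold change (Senp2-aKO minus control) of the dimmer against the brighter probe for the 7 genes with 2 kept probes; bars are standard errors and the dashed line marks equal change. Kcna5 and Kcne3, with both probes above background on all 8 arrays, lie nearest the line. Kcna7 lies above it, at 1.83 for the dimmer and 0.37 for the brighter probe. The dimmer probes of Kcnj13, Kcnj14 and Kcnj15 could be kept through 1 group, so their places in the plot support nothing.

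Kcna4 encodes a rapidly inactivating, A-type channel. It read 3.27, 3.27, 2.88 and 3.19 in Senp2-aKO, against 2.36, 2.68, 2.35 and 2.71 in control tissue. The groups were separate and the rise was 1.54-fold (95% interval 1.24 to 1.93, log2 fold change 0.63, SE 0.14, adjusted p = 0.0297). It was lost without Senp2-aKO 1, Senp2-aKO 4, control 1, control 2 or control 3, at adjusted p from 0.0539 to 0.0902.

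Skeletal muscle markers differed between the groups in the same samples and stand beside these rises, since Kcna7 and Kcnj12 are known from striated muscle. All 12 muscle markers were measured, 10 rose and 0 fell, and Mylpf was above background on 1 of 4 control arrays. The list mean was 3.28, 4.10, 4.89 and 4.07 in Senp2-aKO, against -2.16, -2.10, 1.48 and 0.77 in control tissue (exact permutation p = 0.0286, 0.0786 after adjustment over 11 lists). Controls 3 and 4 were thus well above controls 1 and 2 for muscle markers. The dimmer Kcna7 probe, above background on all 8 arrays, read -2.54 and -2.76 on controls 3 and 4, against -2.17 and -2.68 on controls 1 and 2. Kcnj12 was not above background on any control array, so its control values have no order. Kcnc1 was highest of the controls on control 3 (-4.23), where the muscle mean was also highest. Within Senp2-aKO tissue, array 3 had the highest muscle mean and the highest dimmer Kcna7 (-0.32), Kcnj12 (-1.13) and Kcnc1 (-2.93) values. The rest of the order differed: the muscle mean was lowest on array 1, but Kcnj12 (-2.55) and Kcnc1 (-3.67) on array 4. The dimmer Kcna7 probe was lowest on array 2 (-0.97). The brighter Kcna7 probe was highest on Senp2-aKO 1 (0.26), which had the lowest muscle mean. Brown and beige adipocyte markers also differed: 6 of 6 rose, with list means from 1.68 to 3.13 in Senp2-aKO and from -1.33 to -0.77 in control tissue (exact permutation p = 0.0286, 0.0786 adjusted). Adipose progenitor markers had list means from 4.93 to 5.2 in Senp2-aKO and from 4.25 to 4.69 in control tissue (exact permutation p = 0.0286, 0.0786 adjusted), with 2 of 6 higher (Dpp4 and Ly6a) and 0 lower. Of 8 nerve and Schwann cell markers, 0 rose and S100b fell (log2 fold change -1.39, adjusted p = 0.0430), with list means from 0.30 to 0.57 in Senp2-aKO and from 0.52 to 0.79 in control tissue (exact permutation p = 0.0857). The part of muscle, beige adipocytes, progenitors or nerve in the channel differences was not tested.

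**Figure D3:**
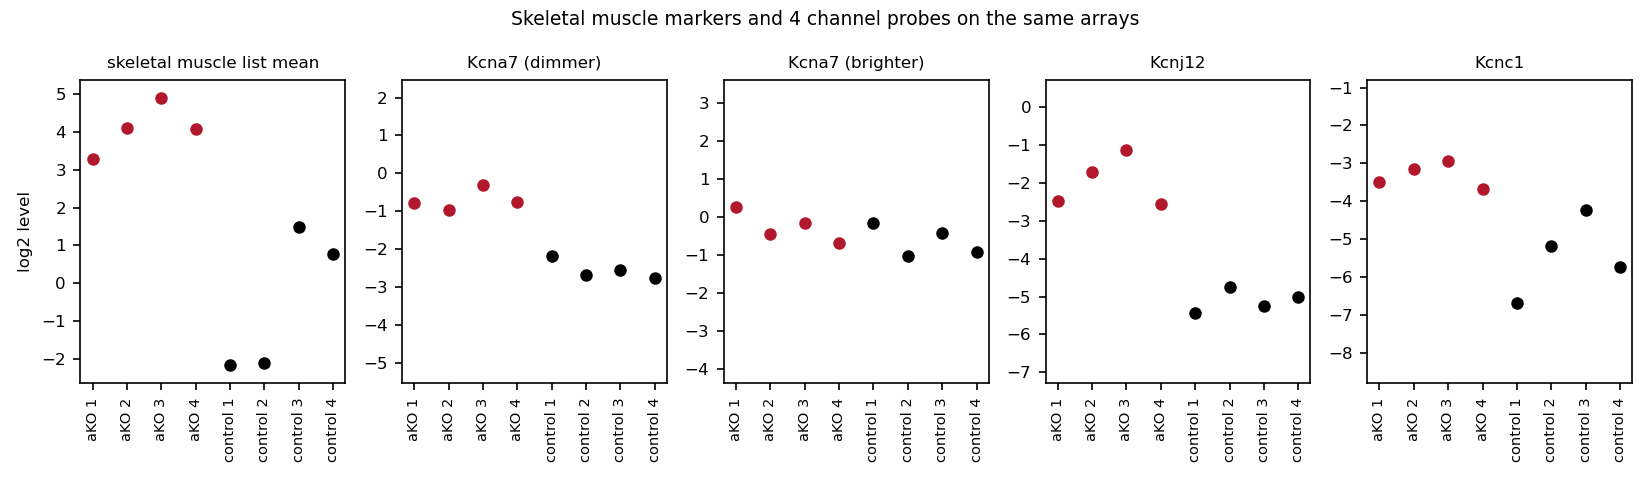
Log2 level on each array, relative to the array's 75th percentile, for the mean of 12 skeletal muscle markers and for 4 channel probes; red points are Senp2-aKO and black points control arrays, and every panel spans the same range. The muscle list separates controls 3 and 4 (1.48 and 0.77) from controls 1 and 2 (-2.16 and -2.10). On the 4 control arrays the dimmer Kcna7 probe stays between -2.76 and -2.17, and Kcnj12 was above background on 0 of them. Senp2-aKO 3 is highest of its group for the muscle list (4.89), the dimmer Kcna7 probe (-0.32), Kcnj12 (-1.13) and Kcnc1 (-2.93). The muscle list is lowest in that group on Senp2-aKO 1 (3.28). Kcnj12 and Kcnc1 are lowest on Senp2-aKO 4, and the dimmer Kcna7 probe on Senp2-aKO 2. The brighter Kcna7 probe is highest on Senp2-aKO 1 (0.26).

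Kcna6 and Kcnc4, both pore-forming, had groups that did not overlap and a log2 difference of at least 0.5, but did not pass. Kcna6 read -1.13, -0.50, -1.10 and -0.96 in Senp2-aKO, against -1.50, -1.23, -1.84 and -1.54 in control tissue (0.60, SE 0.18, adjusted p = 0.0720). Kcnc4, known from fast skeletal muscle, read -4.20, -4.07, -3.99 and -3.14 in Senp2-aKO, against -4.62, -4.70, -4.53 and -4.57 in control tissue (0.75, SE 0.22, adjusted p = 0.0671). It was above background on 4 Senp2-aKO and 3 control arrays, so the filter could act through 1 group. Kcnc4 passed in 3 alternatives and Kcna6 in 1.

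The pore-forming voltage-gated probes that follow had overlapping groups. Kcna1, a channel of axons, read -0.81, -0.05, -0.51 and -0.07 in Senp2-aKO, against -1.32, -0.79, -1.70 and -1.15 in control tissue (log2 fold change 0.88, SE 0.24, adjusted p = 0.0536). Kcnc2 read -1.50, -2.67, -0.81 and 0.09 in Senp2-aKO, against -0.25, -0.19, 0.17 and -0.28 in control tissue, so its Senp2-aKO arrays differed widely among themselves (-1.08, SE 0.51, adjusted p = 0.202). Kcnd1, an A-type channel, differed by 0.02 (log2, 95% interval -0.23 to 0.26), the narrowest interval of the family. Kcnq1, which with auxiliary subunits carries a slow current in heart and epithelia, differed by -0.19 (log2, SE 0.12, adjusted p = 0.338). Kcns3, a silent subunit that modifies other voltage-gated pores, read 2.49, 1.47, 2.28 and 2.31 in Senp2-aKO, against 2.69, 2.57, 2.10 and 2.53 in control tissue, with Senp2-aKO 2 lowest (-0.34, SE 0.24, adjusted p = 0.381). Kcna3, the channel of T lymphocytes, was above background on 2 arrays of each group and differed by 0.29 (log2, SE 0.29, adjusted p = 0.558). T lymphocyte markers had a list mean of 2.81 on Senp2-aKO 2 and of -0.81 to -0.06 on the other Senp2-aKO arrays, against -0.32 to 0.55 on control arrays. Senp2-aKO 2 was the lowest of its group for 21 of the 51 probes, and the other Senp2-aKO arrays for 8 to 12.

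Auxiliary subunits bind voltage-gated pores and alter their gating or transport to the membrane. Of 13 such genes 6 had a kept probe, and of their 8 probes 0 rose, 1 fell and 7 did not pass. Kcne3, a partner of Kcnq1 in epithelia and of Kcnc4 in skeletal muscle, read -1.62, -1.51, -1.29 and -1.36 with its brighter probe in Senp2-aKO, against -1.10, -0.87, -0.92 and -1.05 in control tissue. The groups did not overlap, and the fall was 1.38-fold (95% interval 1.16 to 1.64, log2 fold change -0.46, SE 0.11, adjusted p = 0.0364). It was lost without Senp2-aKO 1, Senp2-aKO 4 or any 1 control array, at adjusted p from 0.0657 to 0.102. The dimmer probe differed by -0.49 (log2, SE 0.16, adjusted p = 0.0827), with overlapping groups. Kcne1l, a further small subunit of the Kcne kind, differed by -0.99 (log2, SE 0.29, adjusted p = 0.0667) with its brighter and by -0.46 (SE 0.28, adjusted p = 0.316) with its dimmer probe. Kcnip3, a calcium-binding partner of A-type channels, read 0.67, 1.17, 0.68 and 0.27 in Senp2-aKO, against 0.16, -0.19, 0.35 and -0.18 in control tissue (0.66, SE 0.21, adjusted p = 0.0799). Kcnab1 differed by -0.18 (log2, SE 0.33, adjusted p = 0.764), and Kcnab2 was above background on 0 arrays.

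K2P channels carry the background leak of potassium. Of 14 genes 8 had a kept probe, with 3 rises, 0 falls and a median log2 fold change of 0.25. Kcnk6 read 1.34, 1.52, 1.16 and 1.38 in Senp2-aKO, against 0.74, 0.78, 1.01 and 0.96 in control tissue. Its groups did not overlap, and the rise was 1.39-fold (95% interval 1.16 to 1.67, log2 fold change 0.48, SE 0.12, adjusted p = 0.0381). Kcnk13, known from microglia and other macrophages, read 0.03, -0.25, -0.23 and -0.26 in Senp2-aKO, against -0.64, -1.29, -0.83 and -0.75 in control tissue. Every Senp2-aKO value lay above every control value, a 1.62-fold rise (95% interval 1.26 to 2.08, log2 fold change 0.70, SE 0.16, adjusted p = 0.0312). Without Senp2-aKO 1, Senp2-aKO 4 or any 1 control array both calls were lost, at adjusted p from 0.0687 to 0.113 for Kcnk6 and from 0.0509 to 0.0766 for Kcnk13. Of 6 macrophage markers 5 were measured, of which 1 rose (Cd163) and 0 fell. Their list mean ranged from 3.05 to 3.55 in Senp2-aKO and from 2.63 to 3.24 in control tissue (exact permutation p = 0.114), and the part of macrophages in the difference of Kcnk13 was not tested.

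Kcnk9, an acid-sensitive leak channel, read -3.69, -4.06, -3.65 and -3.55 in Senp2-aKO, against -4.56, -4.09, -4.77 and -5.32 in control tissue, where it was above background on 1 of 4 arrays. Senp2-aKO 2 and control 2 nearly touched. The 4 Senp2-aKO arrays met the background filter without any control array, so the rise is a description. The rise was 1.93-fold (95% interval 1.30 to 2.86, log2 fold change 0.95, SE 0.25, adjusted p = 0.0491). It was lost without Senp2-aKO 1, 3 or 4 or control 1, 3 or 4, at adjusted p from 0.0796 to 0.121. It was also lost under quantile normalisation (adjusted p = 0.0598), with a replicate block (0.116) and without the background filter (0.103). Its close relative Kcnk3, a leak channel described in mouse brown adipocytes, read 1.89, 1.14, 1.82 and 2.29 in Senp2-aKO, against 1.76, 1.97, 1.77 and 2.37 in control tissue. These ranges overlapped, and the log2 fold change was -0.19 (95% interval -0.75 to 0.38, adjusted p = 0.663), on arrays where all 6 brown and beige markers were higher. Kcnk5 read highest on Senp2-aKO 3 and did not pass (0.79, SE 0.44, adjusted p = 0.270). Kcnk4 and Kcnk15 differed by 0.03 and -0.12 on the log2 scale.

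**Figure D4:**
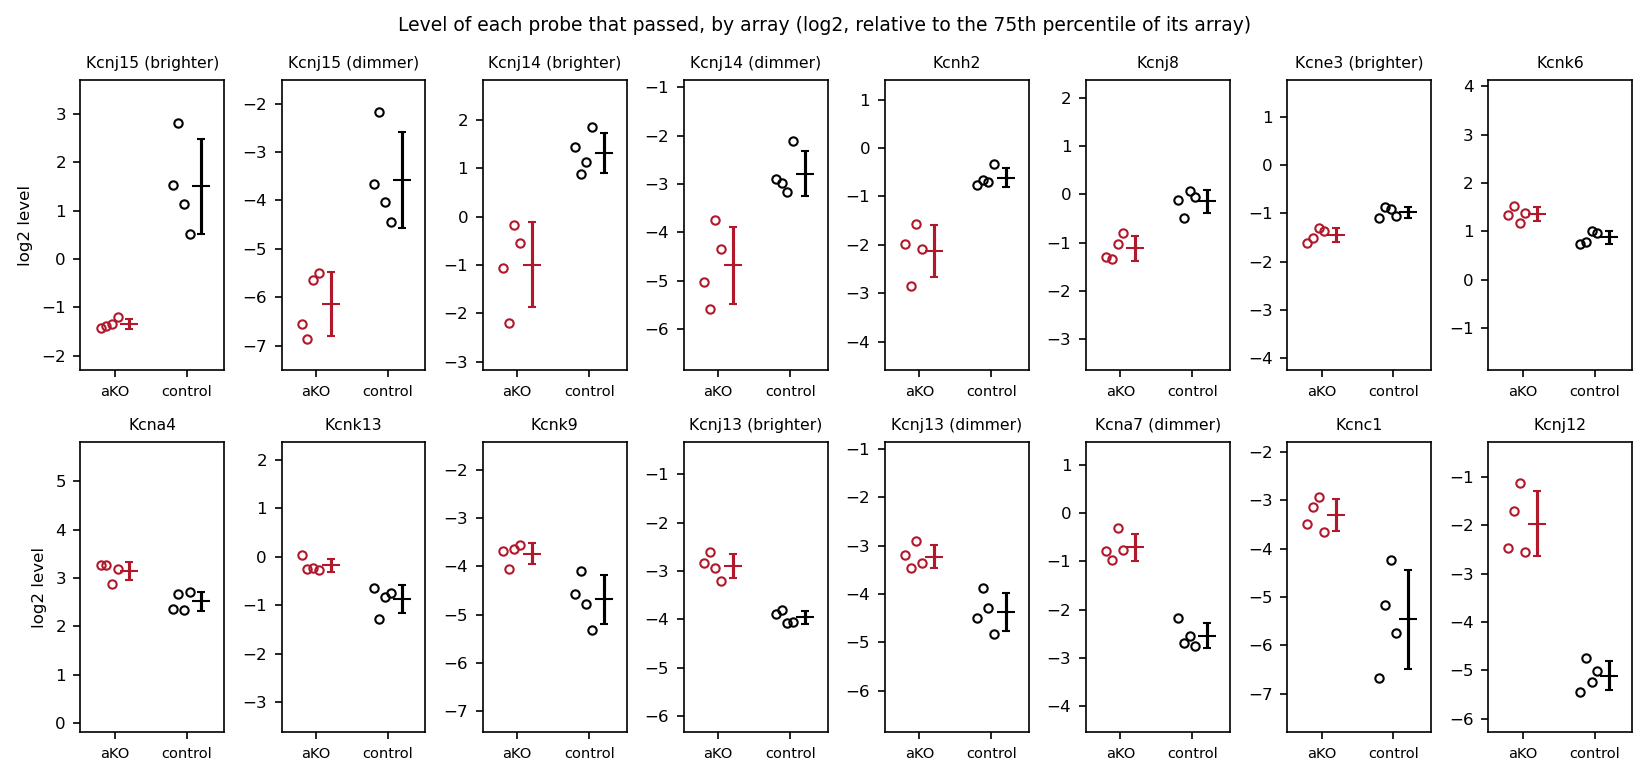
Level of the 16 potassium channel probes that passed on each array (log2, relative to the array's 75th percentile), Senp2-aKO in red at the left and control in black at the right of each panel, with mean and SD; every panel spans the same range of log2 units. The Senp2-aKO and control points are separate in every panel, by the narrowest margin for Kcnk9; Kcnj12 in control and the dimmer Kcnj15 probe in Senp2-aKO tissue were not above background.

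No probe of the 6 calcium- or sodium-activated genes with a kept probe passed in limma. Kcnma1, the large-conductance calcium-activated channel of smooth muscle and adipocytes, had 1 kept probe of 3. It read -2.55, -3.31, -2.90 and -2.80 in Senp2-aKO, against -3.39, -2.81, -3.0 and -2.85 in control tissue (log2 fold change 0.13, 95% interval -0.31 to 0.56, adjusted p = 0.706). Kcnn4, an intermediate-conductance channel of lymphocytes and other non-excitable cells, read -2.16, -0.20, -0.97 and -1.91 in Senp2-aKO, against -0.74, -1.36, -0.14 and -1.33 in control tissue (-0.42, SE 0.46, adjusted p = 0.589). Both genes had overlapping groups, and Kcnn4 was highest in its group on Senp2-aKO 2. Kcnu1 differed by -0.76 (log2, SE 0.38, adjusted p = 0.230), Kcnn3 by 0.06 (SE 0.23) and Kcnt1 by 0.26 (SE 0.79).

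The threshold of 4 arrays kept 4 probes by the narrowest margin. Kcnj12 was above background on the 4 Senp2-aKO arrays, the dimmer Kcnj15 probe on the 4 control arrays and Kcna3 on 2 of each. Kcnmb4, a beta subunit of the large-conductance channel, was above background on 3 Senp2-aKO arrays and 1 control array. It read -4.57, -2.31, -4.29 and -4.31 in Senp2-aKO, against -5.92, -5.18, -4.45 and -4.92 in control tissue. Just outside, on 3 arrays, Kcnk2 read -5.23, -5.21, -4.35 and -3.75 in Senp2-aKO, against -4.66, -4.75, -4.29 and -5.07 in control tissue. Kcng2 read -5.05, -4.50, -5.29 and -4.78 in Senp2-aKO, against -5.03, -4.37, -4.55 and -5.41 in control tissue. Of the other named Kcn probes that were not kept, 64 were above background on 0 arrays, 10 on 1 array and 4 on 2. Kcnk1 was among those 4, on 2 Senp2-aKO and 0 control arrays, and Kcnj2 was above background on 1 array.

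Other genes that move potassium were read from a list of 45 pumps, cotransporters and related channels, of which 32 were measured. Of these, 6 rose and 0 fell, with a median log2 fold change of 0.06, beside 6.13% of all named genes higher and 5.72% lower. Tmem38a, a potassium-permeable channel of the sarcoplasmic reticulum, read 1.85, 2.65, 3.52 and 2.34 in Senp2-aKO, against -0.58, -0.59, 0.43 and 0.15 in control tissue. It rose 6.66-fold (95% interval 3.66 to 12.1, log2 fold change 2.74, SE 0.38, adjusted p = 0.00750), and, like the muscle list, stood higher on controls 3 and 4 than on controls 1 and 2. The call held in all 16 alternatives.

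Atp1b1, a beta subunit of the sodium-potassium pump, was 3.26-fold higher (1.71 on the log2 scale, SE 0.37, adjusted p = 0.0287), and the sodium-potassium-chloride cotransporter Slc12a2 by 0.53 on the log2 scale (SE 0.09, adjusted p = 0.0157). Fxyd3, a pump regulator of epithelia, rose by 1.32 (SE 0.33, adjusted p = 0.0418), with Senp2-aKO 4 (-3.59) within the control range of -4.21 to -3.56. Slc12a8 rose by 0.47 (SE 0.12, adjusted p = 0.0451), while its second probe did not pass (0.17, adjusted p = 0.567). Atp1b1 was lost without Senp2-aKO 4 or any 1 control array (adjusted p from 0.0530 to 0.0817), and Slc12a2 without control 1 or control 3 (0.0516 to 0.0592). Fxyd3 was lost without any 1 array other than Senp2-aKO 4 (0.0703 to 0.113), and Slc12a8 without any 1 array other than Senp2-aKO 2 (0.0691 to 0.114). Under quantile normalisation neither Fxyd3 nor Slc12a8 passed, and Fxyd3 was also lost with array weights. The number of listed genes that rose was 2 without control 1 or control 3, and 3 without control 2 or control 4.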

How the data were processed

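Arrays of 4 Senp2-aKO and 4 control samples were read, per the submitters' processing notes, with Agilent Feature Extraction 11.5.1. The deposited processed signal is an intensity, background-subtracted and detrended within the array but not scaled between arrays, per the file headers. The deposited flags for signal above background, outlier spots and saturation hold 0 or 1 (unit other), and 0 spots were saturated. A deposited matrix was not used here because its 8 value columns carry names that fit none of the labels. There were 62976 spots per array, with 3671 controls.

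From the processed signal, log2 values were taken relative to the array's 75th percentile and averaged over the spots of a probe without outlier spots. Of 55681 probes, 27656 were named through their RefSeq accession in the RefSeq gene list of assembly GRCm38.p6, 28025 had no name there, and 269 lacked a value on some array. Probes well above background on at least 4 arrays were compared with lmFit and eBayes of limma 3.58.1, run under R 4.3.3, with Benjamini-Hochberg adjustment over 30508 probes. A probe never above background in a group was given as a bound. Single values were compared by exact permutation, two-sided, over 70 assignments. Different probes of a gene are given separately. The fit was tested on simulated data. Precision is limited by the 4 arrays in each group. The labels do not say that replicate numbers pair the samples, so the fit had no block. The deviations of same-numbered samples correlated at 0.04, -0.04, 0.13 and 0.11. Differently numbered samples were not compared in this way, so these values cannot decide whether the samples were paired.

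Alternatives were quantile normalisation, normexp (offset 50), no background filter, a filter on all 8 arrays, a replicate block, array weights, outlier spots kept, 1 probe per gene, and each array left out. The normexp alternative used the median signal, since the files hold no mean signal. The members, gene lists and tests were chosen with earlier results of these data known. Named genes were the channel genes that passed, those that did not but had separate groups and a log2 difference of at least 0.5, 13 genes chosen for their known roles, the probes on exactly 3 or 4 arrays, and the other potassium genes that passed. Further channels were named after their values were seen, and some genes that the rule covers are not reported here.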

Additional observations from a re-analysis of the deposited data

Results flagged for a closer look

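Single arrays stood apart in 9 of the 102 sets of 4 values looked at (51 probes in 2 groups), by a gap to the nearest array that was above Dixon's 95% critical value as a share of the group's range. Chance gives such a gap in about 1 in 20 groups. In Senp2-aKO tissue, Kcnk13 read 0.031 on array 1 (others -0.26 to -0.23), Kcnk16 -3.47 on array 1 (others -4.59 to -4.44), Kcnab1 -2.40 on array 4 (others -2.55 to -2.53), Kcnmb4 -2.31 on array 2 (others -4.57 to -4.29), Kcnk15 -4.33 on array 2 (others -3.82 to -3.81) and the dimmer Kcne1l probe -2.91 on array 2 (others -1.76 to -1.59). In control tissue, Kcnt1 read -1.45 on array 1 (others -5.30 to -4.83), the dimmer Kcna5 probe -2.10 on array 1 (others -1.32 to -1.19) and the brighter Kcne1l probe 0.27 on array 4 (others 1.0 to 1.15). Of these probes, Kcnk13 passed the comparison between the groups. The Senp2-aKO 2 array was the odd one in 3 of the 9 sets.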

How the results depend on the processing

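No named log2 fold change that passed changed its direction in any alternative. The brighter probes of Kcnj15 and Kcnj13, the dimmer probe of Kcna7, Kcnh2 and Tmem38a stayed past the threshold in every alternative that gave them a value. Kcnj12 also did so in 15 alternatives, but it was kept through the Senp2-aKO arrays alone and had to differ. Without the background filter, which raised the number of probes tested to 55412, 4 of the same 51 potassium channel probes were higher and 4 lower. Named Kcn probes outside the 51 were not counted in that setting. Of the other potassium genes 3 rose (Atp1b1, Fxyd3 and Slc12a8 did not pass), and the calls over all probes were 910 higher and 534 lower. With the replicate block 2 other potassium genes rose, and 7 channel probes were higher and 5 lower; the calls of Kcnk9 (adjusted p = 0.116), the dimmer Kcnj15 probe (0.0741), Kcnk6, Kcna4, the brighter Kcne3 probe, Atp1b1, Fxyd3, Slc12a2 and Slc12a8 were lost. With 1 array left out, 4 to 9 channel probes were higher, 2 to 9 were lower and 2 to 6 other potassium genes rose, while the median log2 fold change of the channel probes ran from -0.0073 to 0.16. Over all probes, the calls without control 1 were 559 higher and 281 lower, against 1673 and 1326 on all arrays. Quantile normalisation gave 8 higher and 8 lower channel probes, normexp 12 and 7, and array weights 11 and 10. Over all probes, normexp gave 2780 higher and 1816 lower, array weights 2687 and 2253, and the replicate block 1042 and 615. Quantile normalisation turned the split over all probes to 1514 higher and 1658 lower. Under normexp, whose offset is added to each signal, dim probes moved less: the log2 fold change was 1.32 for Kcnj12, 0.56 for Kcnc1, 0.50 and 0.55 for the probes of Kcnj13, 0.38 for Kcnk9, -0.51 for the dimmer Kcnj15 probe and -0.42 for the dimmer Kcnj14 probe, and -0.99 for Kcnh2; the calls of the dimmer Kcnj15 and Kcnj14 probes and that of Slc12a8 were lost. Kcnk3, Kcnab1 and Kcnma1, none of which passed, took either sign among the alternatives. Signal over background limits the dim probes, of which 12 were above background on 4 to 7 arrays.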
